A study of Mus musculus with 48 samples.

Results

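Potassium channel genes were described in primary mouse astrocytes and lung fibroblasts. They were taken as every gene entry whose symbol begins with Kcn, followed by family letters and a number, and whose mean level over the 12 libraries of any of 4 mouse lines reached 0.5 CPM (counts scaled to the total of the library). Of 50764 gene entries, 93 had such a symbol and 68 of them reached that level. The members nearest the limit were Kcna7 at 0.697 CPM in the Gaq line, Kcna5 at 0.640 CPM and Kcnh4 at 0.581 CPM in the Gas line. Just outside it were Kcnip2 at 0.477 CPM, Kcnb2 at 0.467 CPM and Kcnj11 at 0.463 CPM, each in the Gas line.

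Potassium channels let potassium ions cross the membrane and set how negative the inside of a cell is. Inward rectifiers and two-pore channels carry current at rest, voltage-gated (Kv) channels open on depolarization, silent Kv subunits act only in complexes with other Kv subunits, and accessory subunits such as the Kcne and Kcnab proteins alter gating and trafficking. In the brain, astrocytes take up the potassium that neurons release, a task in which the inward rectifier Kir4.1, encoded by Kcnj10, has a central part, and astrocytes also express two-pore channels of the TREK and TWIK groups.

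The study tested mouse lines that carry BERKY3, a luminescent sensor of an active G protein alpha subunit that is switched on by Cre, and each line is named for the subunit it reports. All cells came from heterozygous mice and received an adeno-associated virus of the AAV2/1 type with a CMV promoter. Agonist or fresh medium was given for 90 min, and each of the 16 groups had 3 libraries. Nothing in the sample labels says that replicates came from separate animals or cultures, so p-values measure only the spread between these libraries. In the Gas line, brain astrocytes received 1 µM isoproterenol, a beta-adrenergic agonist, or no agonist, each with Cre virus (sensor on) or empty virus (sensor off). In the Gai, Gaq and Ga13 lines, lung fibroblasts received 100 µM TRAP-6, a peptide agonist of the thrombin receptor PAR1, or no agonist, each with Cre virus or empty virus. Effects of Cre and of the sensor cannot be told apart, since Cre switches the sensor on. Cell type and agonist cannot be told apart either, because all astrocytes were from the Gas line and no other cells received isoproterenol. Astrocytes were also plated more densely (430000 cells a well, against 160000 for fibroblasts), in another medium and with virus diluted 500-fold, against 1000-fold for fibroblasts.

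The libraries held 15606007 to 42564149 counts. Astrocyte markers (10 genes, among them Gfap and Aqp4) summed to 8859 to 9371 CPM in resting Gas libraries, against 210.1 to 271 CPM, 186 to 198 CPM and 171 to 193 CPM in resting Gai, Gaq and Ga13 libraries. Fibroblast markers (8 genes) summed to 1644 to 2056 CPM in resting astrocytes and to 28580.0 to 41578 CPM, 36604 to 44979 CPM and 46835 to 48770.5 CPM in the resting Gai, Gaq and Ga13 fibroblasts. The astrocyte libraries also held markers of neurons (544 to 591 CPM at rest, 9 genes), the oligodendrocyte lineage (807 to 1003 CPM, 10 genes), ependymal cells (399.6 to 448 CPM, 5 genes) and microglia or macrophages (168 to 189 CPM, 9 genes). Most of the neuron sum was Map2, with a line mean of 391 CPM. Stmn2, Tubb3, Dcx and Gad1 had 91.8, 47.6, 21.6 and 9.53 CPM. Syt1, Snap25, Slc17a7 and Rbfox3 were low, at 3.01, 2.28, 0.464 and 0.427 CPM. In these bulk libraries, fewer cells of a type and less RNA per cell cannot be told apart. In the Gai line the 4 libraries with replicate number 1 stood apart from the other 8 on the first principal component (22.2% of the variance), and tests within the Gai line or between fibroblast lines are also given without them.

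Most of the 68 genes passed the level in astrocytes. At a line mean of at least 0.5 CPM, 66 of the 68 genes were present in the Gas astrocytes, and 31, 31 and 30 in the Gai, Gaq and Ga13 fibroblasts. The genes were chosen by this same level in any line, so the counts describe the selection, and shares of all genes at 0.5 CPM are not given. Among all genes, 18103 had enough counts to be tested in the Gas line, and 15980, 15528 and 15835 in the Gai, Gaq and Ga13 lines. All 4 lines shared 29 genes, 35 reached the level in astrocytes and in no fibroblast line, and Kcnj8 and Kcna7 reached it in fibroblasts only. By family, astrocytes passed the level for 10 of 11 inward rectifiers, 9 of 9 two-pore channels, 14 of 15 Kv1 to Kv4 subunits, 4 of 4 silent Kv subunits, 4 of 4 Kv7 subunits, 7 of 7 EAG, ERG and ELK subunits, 7 of 7 calcium- or sodium-activated channels and 11 of 11 accessory subunits. The Gai fibroblasts passed it for 5, 5, 6, 0, 2, 2, 5 and 6 genes of the same families, and no silent Kv subunit reached 0.5 CPM in any fibroblast line.

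**Figure D1:**
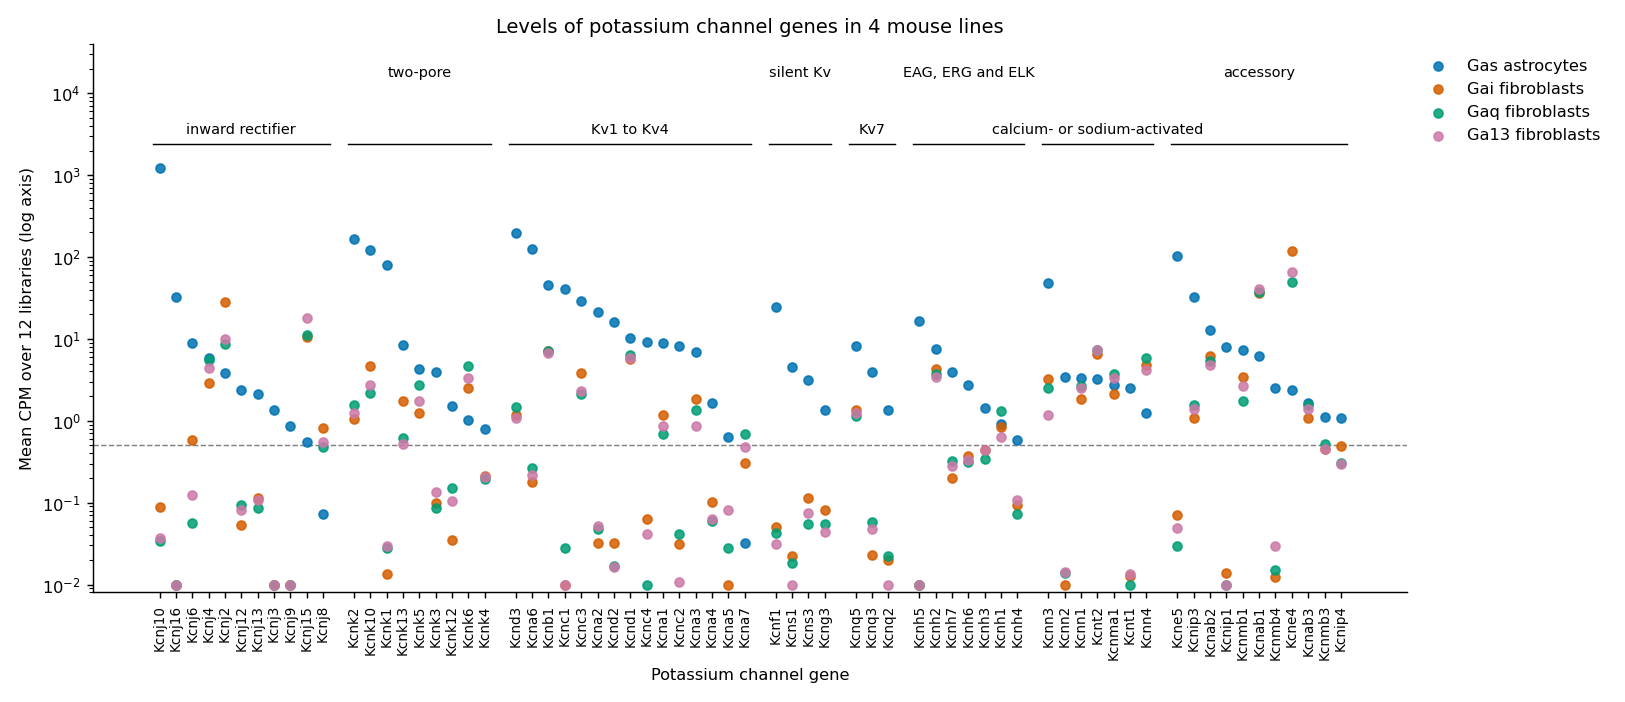
Mean level of 67 of the 68 potassium channel genes in the 4 lines (log10 CPM scale, mean of 12 libraries per line, values under 0.01 CPM drawn at 0.01), grouped by family, with the 0.5 CPM limit as a dashed line. The astrocyte line lies above the limit for 65 of the genes drawn, and each fibroblast line for 29 or 30.

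Levels of different genes were compared per length, as CPM per 1000 bases of exon (RPKM) in the 6 resting libraries of a line, with lengths from an earlier mouse annotation. Kcnj10 stood far above every other member in resting astrocytes, at 248 ± 10.2 RPKM (mean ± SD, n = 6 for all values in this paragraph). It made up 56.3 ± 0.732% of the summed RPKM of the pore-forming members. The next pore-forming genes were the two-pore channels Kcnk2 (TREK-1) with 7.80 ± 0.385% and Kcnk1 (TWIK-1) with 5.79 ± 0.353%, then the voltage-gated subunits Kcna6 with 4.71 ± 0.248% and Kcnd3 with 4.68 ± 0.166%. Kcna6 and Kcnd3 lay within each other's spread, and Kcnk10 (TREK-2) followed with 2.10 ± 0.188%. By family, inward rectifiers held 60.0 ± 0.747% of the pore-forming total, two-pore channels 17.2 ± 0.744% and Kv1 to Kv4 subunits 16.6 ± 0.284%. Kcne5, an accessory subunit of the Kcne family, ranked second among all members at 65.0 ± 3.88 RPKM.

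Resting fibroblasts had another order, and their leading gene was an accessory subunit. Kcne4, which in heterologous cells inhibits several Kv channels, had 0.147 ± 0.120 RPKM in astrocytes, against 44.0 ± 7.29 RPKM in Gai, 14.7 ± 0.848 RPKM in Gaq and 19.3 ± 4.06 RPKM in Ga13 fibroblasts (mean ± SD, n = 6 each). Kcnab1, a cytoplasmic Kv beta subunit, had 4.23 ± 0.252 RPKM, 4.28 ± 0.595 RPKM and 4.61 ± 0.227 RPKM in the same 3 lines, which lay within each other's spread, and an antisense gene overlaps its exons. Among pore-forming genes, Kcnj2 (Kir2.1) led in Gai fibroblasts with 30.4 ± 9.29% of the pore-forming total, and its resting Gai libraries spread widely, with 18.7, 34.5 and 51.2 CPM under Cre virus and 19.1, 46.7 and 40.6 CPM under empty virus. Kcnj4 (Kir2.3) led in Gaq fibroblasts with 15.5 ± 3.87%, within the spread of Kcnj15 (Kir4.2), at 10.4 ± 1.83%. In Ga13 fibroblasts Kcnj15 had 16.5 ± 1.74%, and the next were Kcnj4 with 12.7 ± 1.53% and Kcnj2 with 11.3 ± 4.24%. Inward rectifiers were the largest family in every fibroblast line, with 48.3 ± 8.41%, 36.9 ± 2.09% and 42.7 ± 2.80% of the pore-forming total. Calcium- or sodium-activated channels held 1.60 ± 0.110% in astrocytes, against 13.0 ± 3.76%, 18.4 ± 1.88% and 17.0 ± 2.44% in the Gai, Gaq and Ga13 fibroblasts. These are shares of unlike totals, since Kcnj10 alone had 248 RPKM in astrocytes, so a smaller share is not a lower level. Kcnn3 had 4.74 RPKM in astrocytes, against 0.299, 0.250 and 0.116 RPKM in the same 3 lines. Kcnn4 had 0.289 RPKM, against 0.945, 1.13 and 0.875 RPKM. Kcnn1, Kcnn2 and Kcnt1 also had higher means in astrocytes than in each fibroblast line, Kcnt2 a lower one and Kcnma1 one between them.

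Resting levels were set against each other in a fit of all 48 libraries with edgeR's quasi-likelihood test, with calls made where the Benjamini-Hochberg adjusted p was under 0.05. Among all genes tested, 85.8% were called (46.2% higher and 39.6% lower in astrocytes), so a call says little here, and the members were chosen by level in these same libraries. Of the 68 members, 53 were called higher in astrocytes, 10 were called lower and 5 (Kcnab3, Kcnh1, Kcnj4, Kcnk5 and Kcnn1) were not called. Kcnj10 had 191954 counts over the 6 resting astrocyte libraries and 21 over the 18 resting fibroblast libraries, 25566-fold higher in astrocytes (95% exact interval 16725 to 41302). Kcnc1 (Kv3.1) had 7113 counts over the 6 resting astrocyte libraries and 6 over the 18 resting fibroblast libraries, and Kcnk1 had 8131 counts over the 6 resting astrocyte libraries and 9 over the 18 resting fibroblast libraries. All 6 fibroblast counts of Kcnc1 and 6 of the 9 of Kcnk1 came from 1 library, the resting empty-virus replicate 1 of the Gaq line, so no fold is given for these genes. Kcnj16 (Kir5.1), which pairs with Kir4.1 in one channel, had 5051 counts in resting astrocytes and 0 in resting fibroblasts, at least 4709-fold higher against a floor of 3 counts over the fibroblast libraries. These intervals and floors cover counting error only.

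The genes lower in astrocytes were led by Kcne4, whose resting range was 0.0578 to 0.903 CPM (median 0.328) in astrocytes, against 91.2 to 144 CPM (median 116) in Gai, 36.4 to 41.7 CPM (median 38.6) in Gaq and 42.6 to 70.1 CPM (median 46.3) in Ga13 fibroblasts, a log2 difference of -7.84 ± 0.24. Kcnj15 had 0.184 to 0.882 CPM (median 0.577) in astrocytes, against 10.3 to 12.8 CPM (median 11.3), 10.1 to 13.2 CPM (median 11.1) and 15.04 to 19.3 CPM (median 18.1) in the Gai, Gaq and Ga13 fibroblasts (-4.97 ± 0.16 log2). In both genes every fibroblast library lay above every astrocyte library. Kcnj8, the pore subunit Kir6.1 of ATP-sensitive channels, Kcna7, Kcnab1, Kcnn4, Kcnk6 and Kcnj2 had log2 differences of -4.13 ± 0.51, -3.92 ± 0.57, -3.07 ± 0.07, -2.26 ± 0.17, -2.17 ± 0.17 and -1.99 ± 0.25, each lower in astrocytes and called.

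Isoproterenol changed potassium channel expression in astrocytes in both directions within 90 min. Of 66 members tested in the Gas line, 24 (36.4%) changed in the mean response of both viruses, 12 of them higher and 12 lower. Among all genes of the line 23.3% were called (11.7% higher and 11.5% lower), and the median log2 change was -0.03 over the members tested and -0.004 over all genes. All 24 had the same sign under Cre virus and under empty virus, which their choice by the mean of both makes likely. Of the 24, 15 were called under both viruses, and the share of all genes called under both is not given. Taken alone, Cre virus gave calls in 16 of 66 members (24.2%, background 14.3%) and empty virus in 20 (30.3%, background 14.7%). The changes reached 2-fold or more upward in Kcnk5, Kcnj12, Kcnh6 and Kcnk10 and downward in Kcnk3. They did so upward in Kcne4 and Kcng3 too, which were tested only because their stimulated groups passed the filter on low counts.

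**Figure D2:**
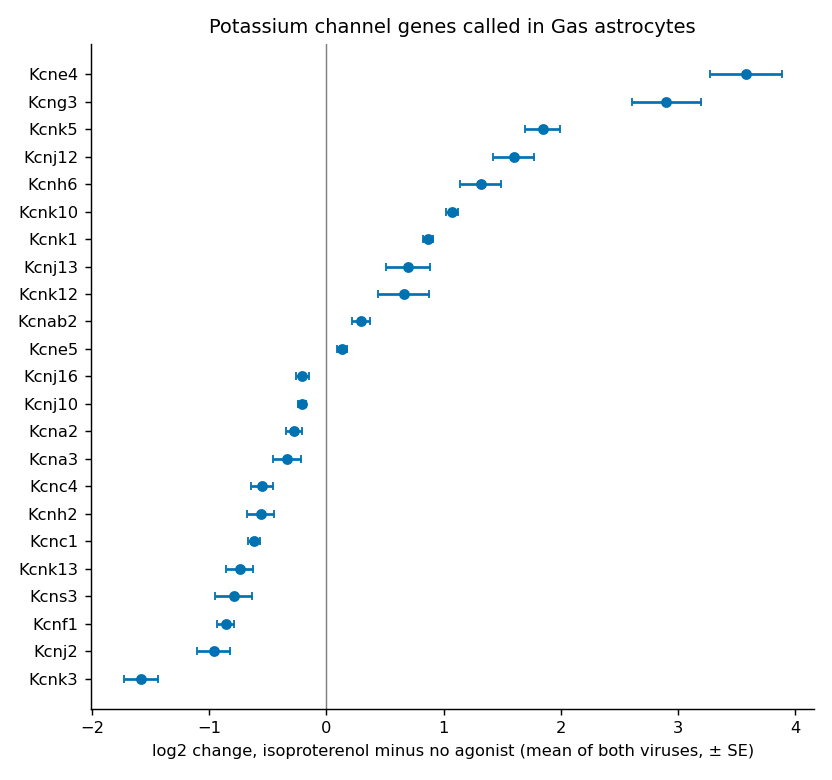
Log2 change with isoproterenol against no agonist in Gas astrocytes for 23 of the 24 called potassium channel genes (points, mean of both viruses; bars, SE of the fit over 12 libraries). Values run from 3.58 for Kcne4 at the top to -1.58 for Kcnk3 at the bottom.

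Of the 9 two-pore channels, which pass background current, 4 rose and 2 fell. Kcnk10, the TREK-2 channel, had 159.6, 167 and 161 CPM in Cre cells and 177, 157 and 167 CPM in empty-virus cells with isoproterenol, against 77.1, 89.1 and 77.1 CPM in Cre cells and 76.8, 93.6 and 74.9 CPM in empty-virus cells without agonist. Every stimulated library lay well above every unstimulated one, and the rise was 1.07 ± 0.05 on the log2 scale (± SE of the fit, here and in what follows; edgeR adjusted p 2.09e-15). Kcnk1, the TWIK-1 channel, had 106, 98.4 and 102 CPM in Cre cells and 94.3, 102 and 102 CPM in empty-virus cells with isoproterenol, against 53.8, 62.1 and 55.8 CPM in Cre cells and 54.3, 62.6 and 54.4 CPM in empty-virus cells without agonist. All stimulated libraries lay above all unstimulated ones, a rise of 0.87 ± 0.05 log2 (edgeR adjusted p 1.40e-17), in a gene whose exons an antisense gene overlaps in the earlier annotation. Kcnk5, the alkaline-activated channel TASK-2, had 6.19, 5.89 and 9.43 CPM in Cre cells and 6.56, 6.28 and 6.30 CPM in empty-virus cells with isoproterenol, against 1.53, 2.04 and 2.17 CPM in Cre cells and 1.95, 1.99 and 1.82 CPM in empty-virus cells without agonist. Its groups did not overlap either, and it rose by 1.84 ± 0.15 log2 (edgeR adjusted p 1.00e-12). Kcnk12 (THIK-2) rose by 0.66 ± 0.22 (edgeR adjusted p 0.0256), and its call was lost without resting empty-virus replicate 1, resting Cre replicate 3 or stimulated empty-virus replicate 3 (adjusted p 0.0614 to 0.122).

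The same family held a faller of similar size. Kcnk3, the acid-sensitive channel TASK-1, had 1.98, 1.71 and 1.84 CPM in Cre cells and 1.68, 2.68 and 1.64 CPM in empty-virus cells with isoproterenol, against 6.19, 5.50 and 6.25 CPM in Cre cells and 6.36, 4.99 and 5.83 CPM in empty-virus cells without agonist. No stimulated library reached the lowest unstimulated one, and it fell by 1.58 ± 0.15 log2 (edgeR adjusted p 6.46e-11), in a gene whose exons an antisense gene overlaps. Kcnk13 (THIK-1), which microglia also express, had 5.61 to 7.08 CPM (median 5.93) over the 6 isoproterenol libraries and 8.55 to 14.2 CPM (median 10.02) over the 6 without agonist, a log2 change of -0.74 ± 0.11 (edgeR adjusted p 2.90e-06). Microglia and macrophage markers summed to 173 to 187 CPM with isoproterenol and to 168 to 189 CPM without it. Kcnk2, a TREK channel like Kcnk10, had 161 to 168 CPM (median 163) with isoproterenol and 163 to 174 CPM (median 173) without, and was not called (-0.003 ± 0.036 log2, edgeR adjusted p 0.966).

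Outside that family the largest rises were in genes that were low at rest. Of these, Kcne4 and Kcng3 were tested only because their stimulated groups passed the filter on low counts. Genes as low at rest that did not rise could fail that filter. The pattern, the p-values and the gaps between groups of these 2 genes are thus descriptive. Kcne4 had 3.35, 4.22 and 4.77 CPM in Cre cells and 4.04, 5.43 and 4.29 CPM in empty-virus cells with isoproterenol, against 0.123, 0.597 and 0.0578 CPM in Cre cells and 0.418, 0.903 and 0.239 CPM in empty-virus cells without agonist. The groups did not overlap, and the rise was 3.58 ± 0.30 log2 (edgeR adjusted p 1.39e-09). Kcng3, a silent subunit that combines with Kv2 channels, had 1.88, 2.93 and 2.28 CPM in Cre cells and 1.99, 2.20 and 2.79 CPM in empty-virus cells with isoproterenol, against 0.245, 0.346 and 0.116 CPM in Cre cells and 0.232, 0.361 and 0.765 CPM in empty-virus cells without agonist. Its groups were apart too, with a rise of 2.90 ± 0.29 log2 (edgeR adjusted p 4.28e-10), and in both genes the lowest values rest on few counts. Kcnh6, an ERG-type subunit, had 3.09 to 4.46 CPM (median 3.80) with isoproterenol and 1.02 to 1.96 CPM (median 1.64) without agonist (1.32 ± 0.17 log2, edgeR adjusted p 1.71e-07). Its relative Kcnh2, the ERG1 subunit, moved the other way, at 4.85 to 7.21 CPM (median 5.73) with isoproterenol and 7.51 to 10.3 CPM (median 9.12) without (-0.56 ± 0.11 log2, edgeR adjusted p 2.32e-04). The accessory subunits Kcnab2 and Kcne5 rose by 0.30 ± 0.08 and 0.13 ± 0.04 on the log2 scale. The call of Kcne5 was lost without resting empty-virus replicate 1 or stimulated empty-virus replicate 3 (adjusted p 0.0581 to 0.0670), and a gene on the same strand overlaps the exons of Kcnab2.

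Among inward rectifiers, 2 of 10 tested members rose and 3 fell. Kcnj10, the member with the highest RNA level per length in these cells, had 1162, 1129.5 and 1111 CPM in Cre cells and 1140.4, 1091 and 1107 CPM in empty-virus cells with isoproterenol, against 1239, 1379 and 1385 CPM in Cre cells and 1376, 1346 and 1336 CPM in empty-virus cells without agonist. Every stimulated library lay below every unstimulated one, though the change was small at -0.21 ± 0.03 log2 (edgeR adjusted p 6.14e-06), and its partner Kcnj16 had a change of -0.21 ± 0.06 log2 (edgeR adjusted p 0.00512). The Kir2 subunits split. Kcnj12 (Kir2.2) had 2.89 to 4.12 CPM (median 3.50) with isoproterenol and 1.05 to 1.45 CPM (median 1.19) without (1.60 ± 0.18 log2, edgeR adjusted p 3.84e-09). Kcnj2 (Kir2.1) had 1.88 to 3.17 CPM (median 2.58) with isoproterenol and 3.86 to 5.55 CPM (median 5.26) without (-0.96 ± 0.14 log2, edgeR adjusted p 1.19e-06). In neither of these genes did the groups overlap. Kcnj13 (Kir7.1) rose by 0.70 ± 0.19 log2, with exons that lie opposite to those of Gigyf2, so its counts are uncertain without strand.

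Several voltage-gated and silent Kv subunits fell. Kcnf1, a silent subunit (Kv5.1), had 17.0, 18.1 and 16.2 CPM in Cre cells and 14.8, 15.2 and 19.6 CPM in empty-virus cells with isoproterenol, against 33.6, 30.0 and 32.5 CPM in Cre cells and 33.5, 28.8 and 33.1 CPM in empty-virus cells without agonist. Each stimulated library lay below each unstimulated one, and it fell by 0.86 ± 0.07 log2 (edgeR adjusted p 2.14e-12). Kcnc1, the fast delayed rectifier Kv3.1, had 30.1, 30.8 and 28.8 CPM in Cre cells and 28.0, 36.04 and 33.1 CPM in empty-virus cells with isoproterenol, against 49.0, 52.3 and 53.3 CPM in Cre cells and 46.6, 44.9 and 50.5 CPM in empty-virus cells without agonist. It too fell in every stimulated library relative to every unstimulated one, by 0.62 ± 0.06 log2 (edgeR adjusted p 2.12e-11). The other fallers were Kcnc4 (-0.55 ± 0.09 log2), the silent subunit Kcns3 (-0.79 ± 0.16), Kcna2 (-0.28 ± 0.07) and Kcna3 (-0.34 ± 0.12). The call of Kcna3 was lost with DESeq2, and it was lost without resting empty-virus replicate 1, stimulated empty-virus replicate 1, stimulated Cre replicate 1, resting Cre replicate 2, stimulated empty-virus replicate 2 or resting empty-virus replicate 3 (adjusted p 0.0511 to 0.134). Of 14 Kv1 to Kv4 subunits 0 were called higher and 4 lower, and of 7 calcium- or sodium-activated channels 0 were called. Among all genes tested 11.7% were higher, 11.5% lower and 23.3% called in either direction, and these family counts were not tested against those shares. The 42 members that were not called had changes between -0.88 (Kcnk4) and 0.44 (Kcna5) log2.

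**Figure D3:**
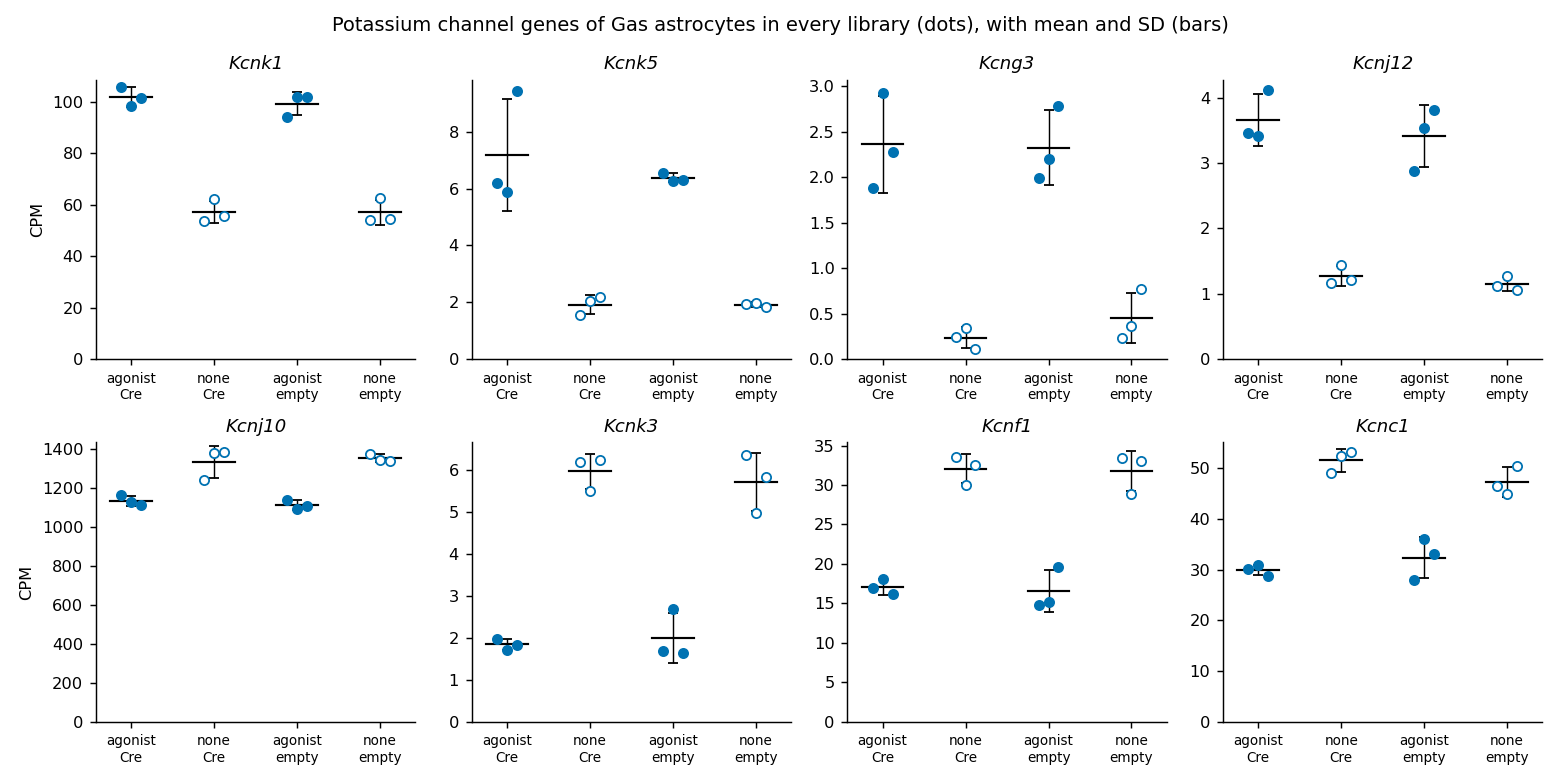
CPM of 8 potassium channel genes in each of the 12 Gas astrocyte libraries (filled dots, isoproterenol; open dots, no agonist; 3 libraries per group; horizontal line, mean; bar, SD). Kcnk1, Kcnk5, Kcng3 and Kcnj12 are higher and Kcnj10, Kcnk3, Kcnf1 and Kcnc1 lower with isoproterenol under both viruses, and no stimulated library overlaps an unstimulated one.

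Some markers of smooth muscle and pericytes moved with the agonist as well. The 9 listed genes summed to 2098 to 2329 CPM with isoproterenol and to 2349 to 2663 CPM without it, ranges that did not overlap. Most of that sum was Acta2, which had a line mean of 2088 CPM and was itself not called. Of 7 tested, 3 fell (Pdgfrb, Myh11 and Cspg4, by 0.93, 0.69 and 0.27 log2), where 11.5% of all genes fell, and Acta2, Notch3, Rgs5 and Des were not called, at -0.09 ± 0.04, -0.02 ± 0.04, 0.11 ± 0.13 and -0.17 ± 0.28 log2. Their part in the changes of the channel genes was not tested. The sums of astrocyte markers overlapped, at 8896 to 9729 CPM with isoproterenol and 8859 to 9371 CPM without.

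Promoter windows of the members were read from RefSeq, from 250 bases before to 50 bases after each start (build GRCm38.p6, given in the direction of transcription), and covered 54 of the 68 genes in 77 windows. They were searched on both strands for the cyclic AMP response element TGACGTCA and for its core TGACG, which the full site contains. The full site was in 0 of the 77 windows, against 1.79% of all 32851 windows of the table, and the core was in 14 windows (18.2%), against 20.8% of all windows. It was found in 5 of 13 windows of members that rose with isoproterenol (38.5%), in 2 of 15 windows of members that fell (13.3%) and in 6 of 47 windows of members tested and not called (12.8%). A match describes the letters of the window and is not a binding site. The windows of the 3 genes with the core among the members that rose 2-fold or more are shown with that of Kcnk10, which holds none in either of its 2 windows. Capitals mark the core, which reads CGTCA where it lies on the other strand.
Kcne4 (chr1:78816661-78816960, + strand): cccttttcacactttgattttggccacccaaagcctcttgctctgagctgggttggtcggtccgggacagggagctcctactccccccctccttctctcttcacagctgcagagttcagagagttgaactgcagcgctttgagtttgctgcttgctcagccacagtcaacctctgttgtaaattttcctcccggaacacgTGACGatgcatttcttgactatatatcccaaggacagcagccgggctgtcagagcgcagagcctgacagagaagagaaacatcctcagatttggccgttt
Kcng3 (chr17:83631846-83632145, - strand): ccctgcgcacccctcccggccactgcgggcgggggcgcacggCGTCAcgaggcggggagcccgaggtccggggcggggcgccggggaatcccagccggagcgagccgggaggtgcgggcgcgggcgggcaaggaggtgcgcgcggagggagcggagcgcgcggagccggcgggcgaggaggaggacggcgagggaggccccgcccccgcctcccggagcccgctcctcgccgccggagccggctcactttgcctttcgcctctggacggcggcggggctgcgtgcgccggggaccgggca
Kcnh6 (chr11:106007898-106008197, + strand): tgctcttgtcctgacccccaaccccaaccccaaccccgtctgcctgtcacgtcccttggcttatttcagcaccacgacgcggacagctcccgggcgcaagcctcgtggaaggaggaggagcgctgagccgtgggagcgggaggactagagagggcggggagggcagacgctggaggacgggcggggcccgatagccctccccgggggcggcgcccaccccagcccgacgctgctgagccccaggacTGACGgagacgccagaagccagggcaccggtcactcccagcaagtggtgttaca
Kcnk10 (chr12:98578164-98578463, - strand): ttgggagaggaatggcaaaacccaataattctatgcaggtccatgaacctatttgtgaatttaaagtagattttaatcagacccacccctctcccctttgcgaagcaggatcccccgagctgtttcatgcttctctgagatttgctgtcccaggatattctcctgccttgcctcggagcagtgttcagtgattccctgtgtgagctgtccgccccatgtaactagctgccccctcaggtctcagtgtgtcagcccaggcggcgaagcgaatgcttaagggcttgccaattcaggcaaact

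TRAP-6 moved few potassium channel genes in fibroblasts, and Kcnk10 was the one called in more than 1 line. In Ga13 fibroblasts 1 of 34 members tested was called (2.94%, background 8.38%) and in Gaq fibroblasts 2 of 33 (6.06%, background 5.61%). In Gai fibroblasts 0 of 34 were called by edgeR (background 1.12%), with 4 at an unadjusted p under 0.05, and DESeq2 called 1, Kcnj6. The share called in each line was near or below its background. Of the 24 genes that changed in astrocytes, 9, 9 and 10 could be tested in the Gai, Gaq and Ga13 lines, and 0, 2 and 1 of them were called there. The share among all genes that changed in astrocytes is not given, so these counts are descriptive.

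The line means of Kcnk10 were 2.20 to 4.61 CPM in fibroblasts. In Gaq fibroblasts Kcnk10 had 4.24, 3.53 and 2.31 CPM in Cre cells and 3.43, 3.50 and 3.31 CPM in empty-virus cells with TRAP-6, against 0.520, 0.781 and 0.570 CPM in Cre cells and 1.06, 2.18 and 0.949 CPM in empty-virus cells without agonist. No stimulated library overlapped an unstimulated one, and the mean change was 1.93 ± 0.22 log2 (edgeR adjusted p 1.01e-07). In Ga13 fibroblasts Kcnk10 had 3.996, 5.00 and 5.04 CPM in Cre cells and 2.92, 4.19 and 4.53 CPM in empty-virus cells with TRAP-6, against 0.922, 0.940 and 0.965 CPM in Cre cells and 1.14, 1.24 and 1.92 CPM in empty-virus cells without agonist. The groups were again apart, with a change of 1.92 ± 0.18 log2 (edgeR adjusted p 2.70e-10). In Gai fibroblasts Kcnk10 had 9.87, 4.07 and 4.87 CPM in Cre cells and 6.07, 4.96 and 3.75 CPM in empty-virus cells with TRAP-6, against 4.72, 3.63 and 3.58 CPM in Cre cells and 3.78, 3.39 and 2.63 CPM in empty-virus cells without agonist. These groups overlapped, and the change of 0.64 ± 0.22 log2 was not called (edgeR adjusted p 0.250). Without the 4 Gai libraries of replicate number 1 it was 0.41 log2 (edgeR adjusted p 0.175). The TRAP-6 response of Kcnk10 differed between the 3 fibroblast lines in a fit of the 36 fibroblast libraries, by 1.30 log2 between Gaq and Gai and by 1.27 between Ga13 and Gai (edgeR adjusted p 0.0154). It was the 1 member of 37 called in that test (background 0.299%). The call was kept without the Gai replicate 1 libraries (adjusted p 2.46e-04) and lost when replicate number 2 or 3 was left out of every group (edgeR adjusted p 0.889 and 0.478), and DESeq2 gave it no adjusted p.

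Kcne4, the member with the highest level per length in fibroblasts, was called in the Gaq line. In Gaq fibroblasts Kcne4 had 61.9, 79.4 and 73.7 CPM in Cre cells and 42.5, 47.8 and 52.5 CPM in empty-virus cells with TRAP-6, against 37.0, 39.0 and 41.7 CPM in Cre cells and 38.2, 36.4 and 41.7 CPM in empty-virus cells without agonist. All stimulated libraries lay above all unstimulated ones, a rise of 0.62 ± 0.06 log2 (edgeR adjusted p 3.32e-08). In Ga13 fibroblasts Kcne4 had 68.5, 88.3 and 112 CPM in Cre cells and 57.5, 66.4 and 84.7 CPM in empty-virus cells with TRAP-6, against 44.4, 45.3 and 70.1 CPM in Cre cells and 42.6, 47.3 and 58.6 CPM in empty-virus cells without agonist. The groups overlapped, and the change of 0.67 ± 0.18 log2 missed the threshold (edgeR adjusted p 0.0629), which it passed with DESeq2 and without stimulated Cre replicate 1 or resting Cre replicate 3 (adjusted p 0.0303 to 0.0449). It passed as well with a term for the replicate number in the fit. In Gai fibroblasts the level was 100.4 to 146 CPM (median 122) with TRAP-6 and 91.2 to 144 CPM (median 116) without, with no call (0.07 ± 0.12 log2, edgeR adjusted p 0.937). Without the replicate 1 libraries the Gai change was -0.09 log2 and was not called. The largest change among other members of the Gai line was in Kcnj6, the G protein-gated subunit GIRK2, which had 0.384, 1.34 and 0.998 CPM in Cre cells and 0.555, 1.42 and 0.609 CPM in empty-virus cells with TRAP-6, against 0.259, 0.108 and 0.0569 CPM in Cre cells and 0.400, 0.700 and 0.175 CPM in empty-virus cells without agonist. These low levels overlapped, and the change of 1.80 ± 0.46 log2 was not called (edgeR adjusted p 0.0675). In the filtered fits Kcnj6 was tested only because its stimulated groups passed the filter on low counts, which favors a rise. It was called with DESeq2, with no filter on low counts and without stimulated empty-virus replicate 1 or stimulated Cre replicate 1 (adjusted p 0.0205 to 0.0482), and without all 4 replicate 1 libraries it was 2.43 log2 (edgeR adjusted p 0.00187). Kcnk10 was called in this line too with no filter on low counts. With a term for the replicate number in the fit, both Kcnj6 and Kcnk10 were called in the Gai line.

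**Figure D4:**
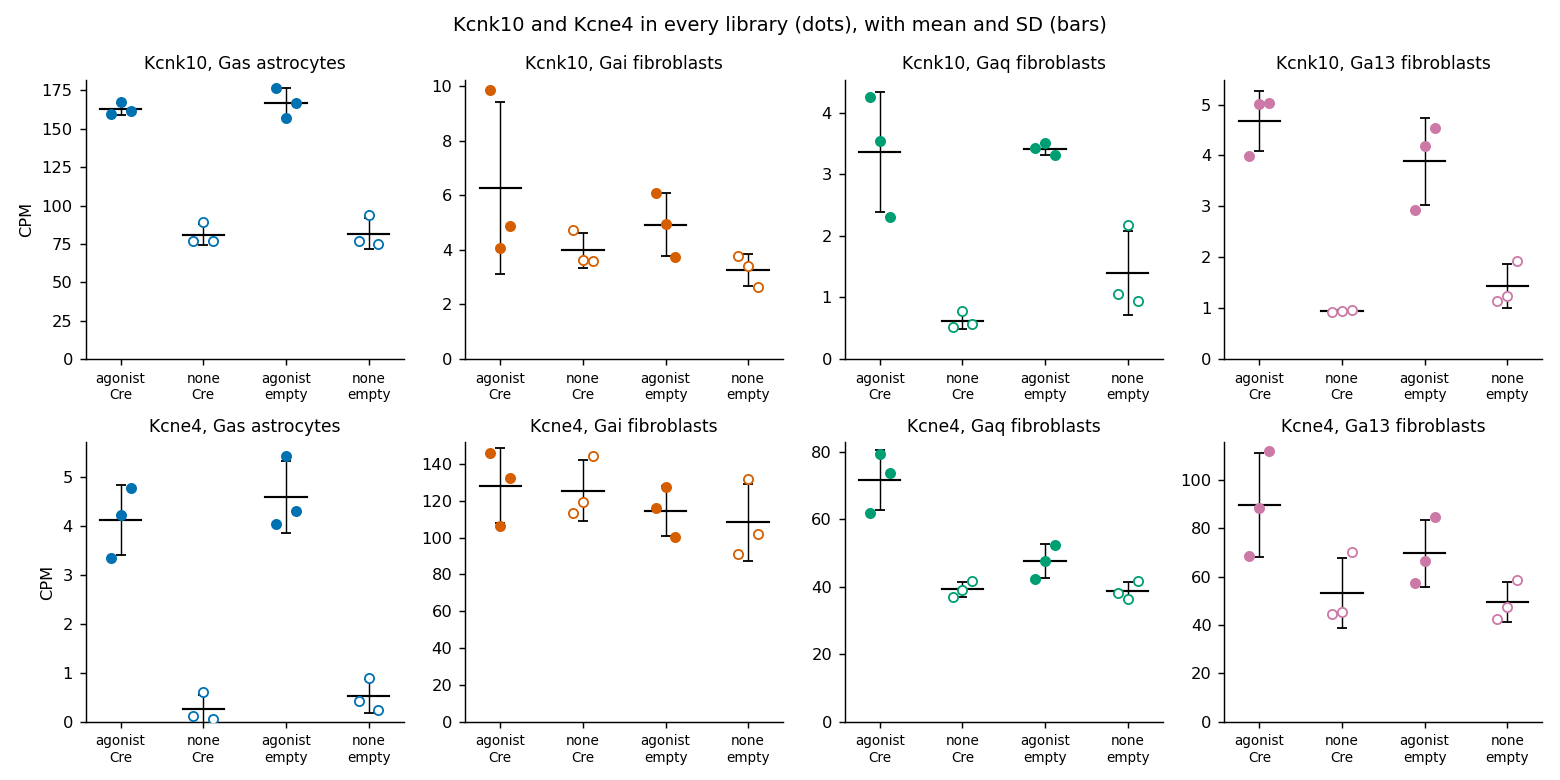
CPM of Kcnk10 (top) and Kcne4 (bottom) in each library of the 4 lines (filled dots, agonist; open dots, no agonist; 3 libraries per group; horizontal line, mean; bar, SD; each panel has its own axis from 0). Kcnk10 is higher with agonist in every group mean, and its stimulated and unstimulated libraries are apart in the Gas, Gaq and Ga13 lines.

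Beside these changes, oligodendrocyte lineage markers (10 genes) summed to 384 to 422 CPM with TRAP-6 and 427 to 471 CPM without in Gaq fibroblasts, and to 338 to 389 CPM and 405 to 456 CPM in Ga13 fibroblasts. Astrocyte markers summed to 208 to 227 CPM with TRAP-6 and 186 to 198 CPM without in the Gaq line, and to 199.8 to 223 CPM and 171 to 193 CPM in the Ga13 line. Most of the oligodendrocyte sum was Pdgfra, which is also in the fibroblast list, with line means of 351 CPM in Gaq and 326 CPM in Ga13. Olig1 and Olig2 had 0 counts in both lines. The largest parts of the astrocyte sum were Gja1 (96.6 and 93.7 CPM in Gaq and Ga13) and Sox9 (84.5 and 77.1 CPM). Gfap had 0.624 and 0.478 CPM, and Aqp4, a defining astrocyte gene, had 0 counts in the Gai and Gaq libraries. The part of these sums in the channel results was not tested.

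The isoproterenol response of astrocytes was then set against the mean TRAP-6 response of the 3 fibroblast lines, a test of the difference in all 48 libraries. Of 68 members, 7 (10.3%) were called, 5 with a larger and 2 with a smaller value in astrocytes, against 14.8% of all genes (7.67% and 7.15%). The response was higher in astrocytes for Kcne4 by 3.12 ± 0.42 log2 (edgeR adjusted p 3.52e-07), for Kcnk5 by 1.52 ± 0.23 (edgeR adjusted p 4.75e-07) and for Kcnh6 by 1.34 ± 0.39 (edgeR adjusted p 0.0103). It was lower in astrocytes for Kcnk13, with a log2 difference of -0.82 ± 0.21 and for Kcnh2, with -0.45 ± 0.16 (edgeR adjusted p 0.00355 and 0.0482). Kcnh6 was low in fibroblasts, with 135 counts over the 18 resting libraries, and was not tested in the Gai line alone. The Kcne4 value rests on 52 counts over the 6 resting astrocyte libraries. Kcng3 (4.50) and Kcnj12 (2.33 ± 0.65) were called too, but their fibroblast libraries held few counts or none, so the size of these values depends on the fit. Kcne4 and Kcnk5 kept their call whichever replicate number was left out of every group. The call was lost without number 1 for Kcnk13 (edgeR adjusted p 0.148), without number 2 or 3 for Kcng3 and Kcnh6, and without any of the 3 for Kcnj12 and Kcnh2, and Kcnh2 lost it with DESeq2 as well. Kcnk10 did not pass (-0.44 ± 0.16 log2, edgeR adjusted p 0.0681), which does not show that its responses were alike.

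**Figure D5:**
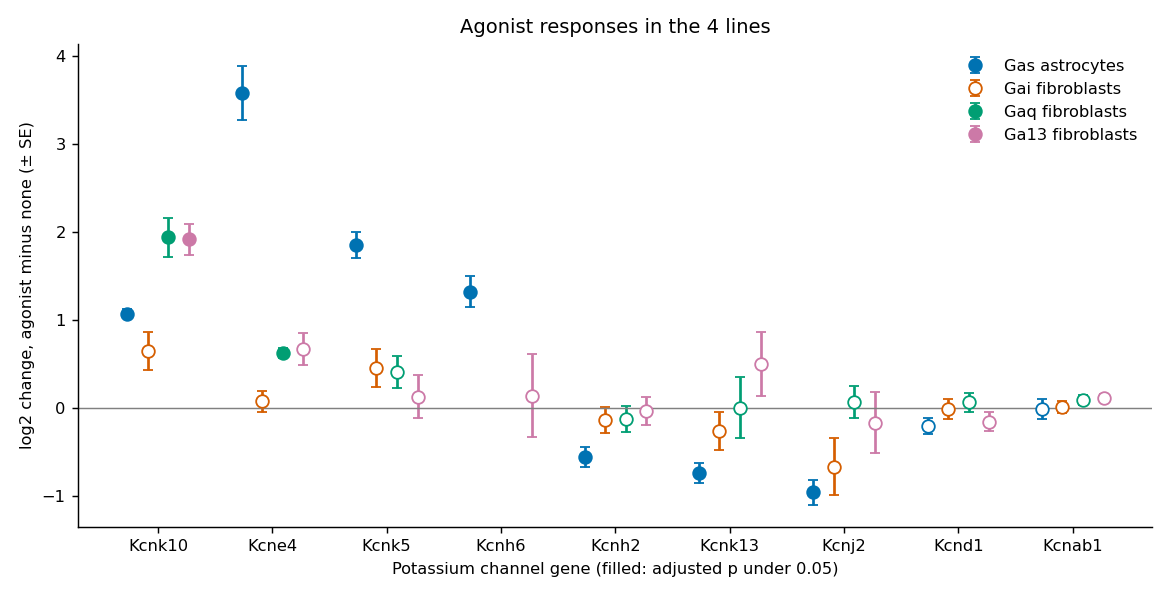
Log2 change with agonist against no agonist for 9 potassium channel genes in the 4 lines (points, mean of both viruses; bars, SE of the fit; filled, edgeR adjusted p under 0.05; genes not tested in a line are not drawn). Filled points are seen for Kcnk10 in 3 lines, for Kcne4 in 2 and for Kcnk5, Kcnh6, Kcnh2, Kcnk13 and Kcnj2 in astrocytes, and the test of the difference between cell types is given in the text.

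Cre virus with the sensor changed few genes of any kind in the Gas, Gai and Ga13 lines, potassium channel genes included. In Gas astrocytes 1 of 66 members was called for the mean Cre effect (background 0.0552%). This was Kcnj6: with Cre virus the cells had 10.4, 10.4 and 13.0 CPM with isoproterenol and 8.52, 11.4 and 10.2 CPM without, against 8.08, 6.95 and 7.55 CPM with isoproterenol and 6.41, 7.04 and 8.56 CPM without in empty-virus cells. The change was 0.51 ± 0.10 log2 (edgeR adjusted p 0.0255), the groups overlapped by 1 library, and the call was lost in 8 of the 12 fits that left out 1 library (adjusted p 0.0706 to 0.114) and kept without resting Cre replicate 1, stimulated Cre replicate 1, stimulated Cre replicate 2 or resting empty-virus replicate 3. Oligodendrocyte lineage markers summed to 905 to 1003 CPM with Cre virus and to 793 to 861 CPM with empty virus in these libraries, ranges that did not overlap, and their part in the Kcnj6 result was not tested. In Gai and Ga13 fibroblasts edgeR called 0 of 34 members in each line (background 0.00626% and 0.0568%), with 0 and 1 at an unadjusted p under 0.05, and DESeq2 also called 0.

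In Gaq fibroblasts 4 of 33 members were called for the mean Cre effect (12.1%, 3 higher and 1 lower), against a background of 6.5% (3.68% higher and 2.82% lower). For Kcnab1, Cre cells had 40.6, 41.7 and 44.9 CPM with TRAP-6 and 41.4, 37.4 and 43.3 CPM without, against 31.1, 35.7 and 35.4 CPM with TRAP-6 and 29.8, 32.6 and 36.3 CPM without in empty-virus cells. Every Cre library lay above every empty-virus library, by 0.31 ± 0.05 log2 (edgeR adjusted p 1.57e-04). Kcne4 and Kcnj15 were higher by 0.31 ± 0.06 and 0.37 ± 0.11, and Kcnh1, the EAG1 subunit, was lower, at -0.86 ± 0.27 log2 (edgeR adjusted p 0.00125, 0.0295 and 0.0449). The calls of Kcnab1 and Kcne4 were kept with any 1 library left out. The call of Kcnj15 was lost in 8 of the 12 fits that left out 1 library (adjusted p 0.0717 to 0.104) and kept without stimulated empty-virus replicate 2, resting empty-virus replicate 3, resting Cre replicate 3 or stimulated Cre replicate 3. The call of Kcnh1 was lost with DESeq2, and it was lost in 8 of the 12 fits that left out 1 library (adjusted p 0.0590 to 0.155) and kept without resting Cre replicate 1, resting empty-virus replicate 2, stimulated empty-virus replicate 2 or stimulated Cre replicate 2. Fibroblast markers (8 genes) summed to 41659 to 46659.8 CPM with Cre virus and 36263 to 39169.9 CPM with empty virus in this line, ranges that did not overlap, and their part was not tested. The TRAP-6 response itself differed between viruses for 1 member of 33, Kcne4 in the Gaq line (background 0.161%). It rose by 0.91 ± 0.08 log2 with Cre virus and by 0.33 ± 0.09 with empty virus, a difference of 0.58 ± 0.12 (edgeR adjusted p 0.0378) that was lost in 10 of the 12 fits that left out 1 library (adjusted p 0.0688 to 0.218) and kept without stimulated Cre replicate 1 or stimulated empty-virus replicate 3. In the Gas, Gai and Ga13 lines edgeR called no member for that difference (background 0%, 0% and 0.0821%), with 1 member in each at an unadjusted p under 0.05, and DESeq2 called 0.

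Without agonist, the 3 fibroblast lines differed from each other in 16 of 37 members tested (43.2%), against 49.6% of all genes. Of these, 9 were highest in the Gai line, 4 in Gaq and 3 in Ga13. Kcnk10 was lower in Gaq and Ga13 than in Gai, with log2 differences of -2.04 and -1.65 (edgeR adjusted p 2.05e-10), and its resting range was 0.520 to 2.18 CPM (median 0.865) in Gaq and 0.922 to 1.92 CPM (median 1.05) in Ga13, against 2.63 to 4.72 CPM (median 3.61) in Gai. The same differences were -1.64 and -1.20 for Kcne4, -1.63 and -2.16 for Kcnk13, and -0.31 and -1.39 for the small-conductance channel Kcnn3 (edgeR adjusted p 4.94e-10, 7.61e-09 and 4.04e-07). Kcnj15 differed by -0.08 in Gaq and 0.58 in Ga13 (edgeR adjusted p 9.99e-08), and was highest in Ga13. Kcnj2 was lower in both, with -2.12 and -1.76 log2 (edgeR adjusted p 1.30e-06), with 6.21 to 11.7 CPM (median 7.83) in Gaq and 6.33 to 18.8 CPM (median 8.46) in Ga13, against 18.7 to 51.2 CPM (median 37.6) in Gai. Microglia and macrophage markers (9 genes) moved along with the lines, at 62.5 to 79.1 CPM in Gaq and 32.8 to 44.7 CPM in Ga13, against 143 to 186 CPM in Gai. The sum of endothelial markers (7 genes) was ordered the same way, at 13.3 to 16.5 CPM in Gaq and 7.21 to 8.72 CPM in Ga13, against 22.7 to 25.8 CPM in Gai. Not every gene followed: Kdr had line means of 4.72 CPM in Gaq and 4.01 CPM in Gai, and Tek 1.02 and 0.716 CPM. The other endothelial genes were ordered as their sum. The part of both lists in these differences was not tested. Without the Gai replicate 1 libraries 17 members were called, and the 5 genes with the smallest p kept their call. Line, mouse and culture cannot be told apart in this comparison.

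Other genes of potassium handling were taken from a list of 36 (sodium pumps, cation-chloride cotransporters, channel partners, HCN channels and astrocyte partners), of which 29 could be tested in astrocytes. There 6 rose and 1 fell with isoproterenol, a share close to the 23.3% called among all genes of the line. Among them, the sodium pump subunit Atp1b1 and the pump regulator Fxyd6 rose by 0.11 ± 0.03 and 0.12 ± 0.04 log2, the glutamate transporter Slc1a3 by 0.23 ± 0.03, and the connexins Gja1 and Gjb6 by 0.12 ± 0.03 and 1.02 ± 0.37. Gjb6 was low, with a line mean of 0.518 CPM, so its value rests on few counts. It may have passed the filter on low counts only through its stimulated groups. Amigo1, a partner of Kv2 channels, fell by 0.19 ± 0.06. In fibroblasts 23 could be tested in each line. Gja1 rose with TRAP-6 by 0.37 ± 0.05 in Gai, 0.41 ± 0.04 in Gaq and 0.55 ± 0.04 in Ga13. Slc12a2, the cotransporter NKCC1 that carries potassium into cells, rose by 0.32 ± 0.05 in the Gaq line and by 0.27 ± 0.05 in the Ga13 line.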

How the data were processed

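RNA sequencing was done on 48 libraries of poly(A) RNA, and the deposited tables hold raw counts per gene, with 1 table for each of the 4 lines. Per the submitters' processing notes, the authors used fastp, Subread and featureCounts with build GRCm39. The versions, the annotation and the strand setting are not given in the sources used here. Without the strand setting, reads of overlapping genes cannot be told apart: exons of 25 of the 68 members overlap another gene in GENCODE M21 (build GRCm38), the earlier annotation that also gave exon lengths for all 68. That overlap was read from exons alone. It is pointed out above for some genes only, and genes on the opposite strand also overlap exons of Kcnj6, Kcnj15 and Kcnk2, among others.

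From these counts, CPM used each library's total. A separate fit per line used edgeR 4.0.16 (limma 3.58.1, R 4.3.3): TMM scaling, the edgeR filter on low counts by group, a robust quasi-likelihood F test and a Benjamini-Hochberg adjusted p under 0.05 over all genes tested (18103 in Gas, 15980 in Gai, 15528 in Gaq and 15835 in Ga13). Fold changes are edgeR's, and the SE comes from the F statistic. Comparisons between lines used 1 fit of 36 or 48 libraries. The fits were tested on simulated data with known changes. No libraries of a group were identical or within sampling noise of each other. Deviations from the group means of libraries with the same replicate number correlated at -0.0182 to 0.172, and at 0.298 to 0.368 for Gai replicate 1, so the numbers were not treated as pairs.

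The members and lists were chosen with earlier results of these data known. Values in every sample are given for Kcnk10, Kcnj10, the 8 members with the smallest p among those called in the Gas line and the called members of the fibroblast lines. For each other comparison, the named genes are at most 5 called members, those with the lowest p, and for the resting difference between cell types 8 each way. Kcnk2, Kcnk4, Kcna5, Kcnj6 in the Gai line and Kcnj2 between fibroblast lines were named after their values were seen, as were the genes named from the list of other potassium genes. Results of some genes are not reported here. Alternatives were DESeq2 1.42.0, RLE scaling in place of TMM, no filter on low counts, a replicate block, each library left out in turn and a level rule of 1 CPM. Leaving out the Gai replicate 1 libraries was added after the data were seen.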

Additional observations from a re-analysis of the deposited data

Results flagged for a closer look

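Responses that differed between groups in a test of the difference are listed here with their sizes. The TRAP-6 response of Kcne4 in Gaq fibroblasts was larger by 0.58 log2 with Cre virus than with empty virus. That call was lost in 10 of the 12 fits that left out 1 library. The TRAP-6 response of Kcnk10 was larger in Gaq than in Gai fibroblasts by 1.30 log2 and larger in Ga13 than in Gai fibroblasts by 1.27 log2. Its call was lost when replicate number 2 or 3 was left out of every group. The isoproterenol response of astrocytes exceeded the mean TRAP-6 response of fibroblasts by 3.12 log2 for Kcne4, 1.52 for Kcnk5 and 1.34 for Kcnh6. For Kcnk13 and Kcnh2 the same differences were -0.82 and -0.45 log2. These calls were lost without number 2 or 3 for Kcnh6, without number 1 for Kcnk13 and without any single number for Kcnh2. Few counts lay behind the Kcne4 value in resting astrocytes and the Kcnh6 value in fibroblasts. Kcng3 and Kcnj12 had fitted differences of 4.50 and 2.33 log2, whose size depends on the fit because their fibroblast libraries held few counts or none, and for which the call was lost when single replicate numbers were left out. Agonist, dose and cell type differ together in the comparison of astrocytes with fibroblasts. No group had the 4 libraries that a check for a single distant library needs.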

How the results depend on the processing

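The isoproterenol response of astrocytes varied little with the processing: 23 members were called with DESeq2, 25 with RLE scaling, and 24 with no filter on low counts or with a level rule of 1 CPM, against 24 as reported. Leaving out 1 library at a time gave 22 to 25 there, 0 to 1 for the mean Cre effect in Gas, 0 to 1 for the response in Gai, 2 to 4 for the Cre effect in Gaq, 0 to 1 for the response difference between viruses in Gaq and 1 to 2 for the response in Ga13, with no change in the other counts within a line. For the Gai response, reported as 0, DESeq2 called 1 member (Kcnj6), omitting the filter gave 2 (Kcnj6 and Kcnk10) and leaving out the 4 replicate 1 libraries gave 1 (Kcnj6). Without those libraries Kcne4 in Gai changed sign, to -0.089 log2, and was not called in either case. For the response difference between viruses in Gaq, reported as 1, omitting the filter gave 2 (Kcne4 and Kcnj2). DESeq2 called 2 for the response in Ga13 (Kcne4 and Kcnk10), reported as 1, and 0 for the difference of the TRAP-6 response between fibroblast lines, reported as 1, where it gave Kcnk10 no adjusted p. With 1 replicate number left out of every group, that difference gave 0 to 1 member, the resting difference between fibroblast lines 15 to 17, the resting difference between cell types 63 to 64 and the difference between the isoproterenol and TRAP-6 responses 3 to 5, against 7 as reported, 6 with DESeq2 and 9 with no filter. The cause of these shifts was not tested. Of the values of single genes under all alternatives, 775 kept their direction and their side of the threshold, 61 lost the call, 12 gained it and 1 changed sign.

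The replicate numbers were not treated as pairs, because of the low correlations given under processing. Still, the best match of a library in the other groups of its line had the same number for 10, 4, 8 and 11 of 12 libraries (Gas, Gai, Gaq and Ga13 in that order). Libraries with the same number were thus often the closest in Gas, Gaq and Ga13. A replicate block gave 24 called members for the response in Gas, 2 in Gai (Kcnj6 and Kcnk10), 2 in Gaq and 2 in Ga13 (Kcne4 and Kcnk10), 5 for the Cre effect in Gaq and 1 in Ga13 (Kcne4), 2 for the response difference between viruses in Gaq (Kcne4 and Kcnj2), 61 for the resting difference between cell types and 10 for the difference between the 2 agonist responses.

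At these library totals, genes near 0.5 CPM had few counts per library, which limits the precision of their values.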
